A study of Mus musculus with 8 samples.

Results

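The genes described here are 39 genes of the lysosome, chosen by name from the 56859 genes of the deposited mouse tables. They comprise 10 glycan hydrolases, 9 cathepsins and other proteases, 6 lipid hydrolases and lipid handling proteins, 6 membrane proteins, 5 subunits of the proton pump and 3 regulators. They were named by function, with no threshold on a measured value, although earlier results of these data were known when they were chosen. Each of the 39 symbols was found once in the table. The levels were measured by RNA-seq of poly(A)-selected RNA in BV2 cells, an immortalised mouse microglial line carried with a WT genotype in the labels. All 8 libraries came from cells placed under oxygen and glucose deprivation, a culture model of stroke, with reperfusion named in every treatment label. The groups were 10panx1 at 9 h (n = 3), control at 9 h (n = 3), 10panx1 at 6 h (n = 1) and control at 6 h (n = 1). 10panx1 is a peptide that blocks the membrane channel pannexin 1, and the design text asks which pathways go with changes in Src after this channel is inhibited. The controls received the same deprivation, and no scrambled control peptide is named. The labels do not say what 6 h and 9 h count, although the protocol gives 9 h of deprivation. The title of the 6 h library with 10panx1 names the peptide, whereas its treatment label does not. All cells belonged to 1 line, and whether the replicates were separate cultures is not stated, so each p-value sets a difference against the variation among these libraries only, and that variation may be technical.

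Lysosomes are acidic organelles that break down glycans, proteins and lipids delivered by endocytosis, phagocytosis and autophagy. Soluble hydrolases do the cutting, a proton pump holds the lumen acidic, and heavily glycosylated membrane proteins line the organelle and move products out. Many of their genes carry E-box elements near the transcript start that are bound by TFEB and TFE3, transcription factors that enter the nucleus when nutrients are short. In microglia, lysosomes digest phagocytosed debris and myelin lipids, and loss of several of these hydrolases causes storage diseases of the brain.

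The libraries held 18056693 to 23164860 counts, so that 3 counts, taken as the limit that a count of 0 allows, correspond to 0.13 to 0.166 counts per 1000000 (CPM). This limit covers counting error only. Of 10 microglia and macrophage markers 9 reached 1.47 CPM or more in some library, and P2ry12 did not. The 10 markers summed to 1064 to 1129 CPM in the 10panx1 libraries at 9 h and 1012 to 1067 CPM in the controls at 9 h. At 6 h they summed to 1031 CPM in the 10panx1 and 1026 CPM in the control library. P2ry12 and Tmem119, which mark resting microglia in brain, were at most 0.492 and 1.47 CPM, and Aif1, a general microglia and macrophage marker, was at most 3.46 CPM. Within the list some markers separated the treatments at 9 h: Csf1r had 357.0 to 374.1 CPM with 10panx1 and 312.7 to 322.7 CPM in controls, Ptprc 156.6 to 173.4 CPM with 10panx1 and 128.3 to 140.4 CPM in controls, and Tyrobp 73.3 to 90.1 CPM with 10panx1 and 93.5 to 103.3 CPM in controls. The summed astrocyte, neuron, and lymphoid and erythroid markers reached at most 2.62 CPM. The oligodendrocyte markers, with Mog and Olig2 at 0, summed to 27.7 to 35.2 CPM at 9 h, against 45.7 CPM with 10panx1 and 45.0 CPM in the control at 6 h, mostly from Cnp. The part of these marker differences in the results below was not tested. Replicate 3 of the 9 h controls stood apart: 82 genes were raised in it alone, its hepatocyte markers summed to 207 CPM against at most 1.48 CPM in every other library, and its fibroblast markers to 40.8 CPM against at most 1.57 CPM. These 82 genes took 0.0736% of its counts and included 0 of the 39 genes. A gene counted as raised alone only with at least 20 counts and over 10 times the counts of every other library. Genes expressed well in all libraries can hardly meet that, so the 0 does not show that the set is free of foreign RNA. Results are also given without this library. The mitochondrial share of counts was 1.141% to 1.284% at 9 h, against 1.515% in the 10panx1 and 1.428% in the control library at 6 h.

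The promoters of some of these genes hold an element tied to the regulators of the set. RefSeq windows of the GRCm38.p6 build, reaching from 250 bases before to 50 bases after the transcript start, were found for 35 of the 39 genes, with none for Ctsb, Asah1, Npc1 and Atp6v1h. The E-box CACGTG, which reads the same on both strands, stood in the window of 13 of these 35 genes (37.1%), against 11.7% of the 9602 expressed genes with a window and 8.09% of all 27025 genes. The longer form bound by TFEB, which is this E-box with a T before it and an A after it and therefore overlaps it in full, stood in 6 of 35 genes (17.1%), against 2.22% of the expressed genes and 1.12% of all genes. A match describes letters and not binding, and these shares carry no test. The 6 stretches with the longer form are printed 5′ to 3′ on the strand of the gene, with the site in capitals, because they hold the element known to be bound by TFEB, a regulator among the 39 genes:
Gla: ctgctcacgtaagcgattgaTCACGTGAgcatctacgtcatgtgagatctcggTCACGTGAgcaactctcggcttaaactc
Ctsa: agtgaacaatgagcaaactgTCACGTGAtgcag
Ctsd: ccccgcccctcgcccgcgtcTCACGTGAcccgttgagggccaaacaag
Mcoln1: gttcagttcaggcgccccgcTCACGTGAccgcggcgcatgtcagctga
Atp6v0d1: agagccaggccctactgcggTCACGTGA
Atp6v1a: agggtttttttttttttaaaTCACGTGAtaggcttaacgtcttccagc

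The Gla stretch lay at chrX:134601173-134601253 on the minus strand and holds 2 sites. The Ctsa stretch lay at chr2:164833740-164833772 on the plus strand, directly before the transcript start, and is 1 of 2 sites in that gene's window. The others lay at chr7:142387899-142387946 on the minus strand (Ctsd), chr8:3500453-3500500 on the plus strand (Mcoln1), chr8:105566061-105566088 on the minus strand (Atp6v0d1) and chr16:44139364-44139411 on the minus strand (Atp6v1a). They belong to the genes of a glycosidase, a pair of proteases, a calcium channel and a pair of pump subunits. The Atp6v0d1 E-box begins at base -3 and so crosses the transcript start, and the second Ctsa E-box begins at base 5, after it. No lipid gene and no regulator with a window held an E-box of either form. Only E-boxes without the flanking bases stood in the windows of Glb1, Gaa, Naglu, Sgsh, Ctsl, Lgmn and Lamp1, the last of which held 4. Ctsd and Mcoln1 each held such an E-box besides the longer form.

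**Figure D1:**
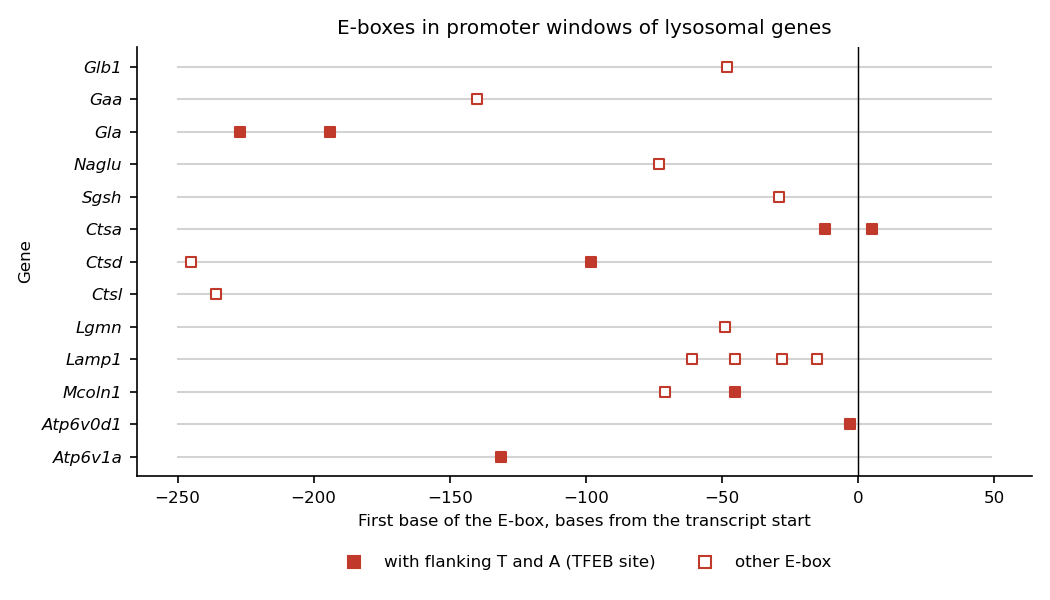
Position of each E-box (horizontal axis, bases from the transcript start, marked by the vertical line) in the promoter windows of the 13 lysosomal genes that hold one. Filled squares have the T and A flanks of the TFEB site and stand in 6 genes, and open squares are the other E-boxes.

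Levels between genes are compared in transcripts per 1000000 (TPM), which the authors scaled for gene length. Proteases held the top of the order. Ctsz, which encodes cathepsin Z, a carboxypeptidase, had the highest level at 2110 ± 102.4 TPM in 10panx1 and 2182 ± 76.0 TPM in control libraries at 9 h (SD, n = 3 each). Ctsb, the cysteine protease cathepsin B, followed at 1661 ± 58.2 TPM in 10panx1 and 1708 ± 33.3 TPM in control libraries. Psap, the precursor of the saposins that present lipids to hydrolases, Cd68, a macrophage membrane glycoprotein, and Grn, which encodes progranulin, averaged 1090, 1041 and 898.6 TPM over the 6 libraries at 9 h. These 5 genes held 47.5% of the summed TPM of the 39. At the low end stood the receptor Scarb2 at 11.6 TPM, the transcription factor Tfeb at 5.48 TPM and the sulfamidase Sgsh at 1.05 TPM. In the order of levels, 23 of the 38 neighbouring pairs had overlapping ranges over the 6 libraries at 9 h, so their order is not resolved, and 15 pairs did not overlap.

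**Figure D2:**
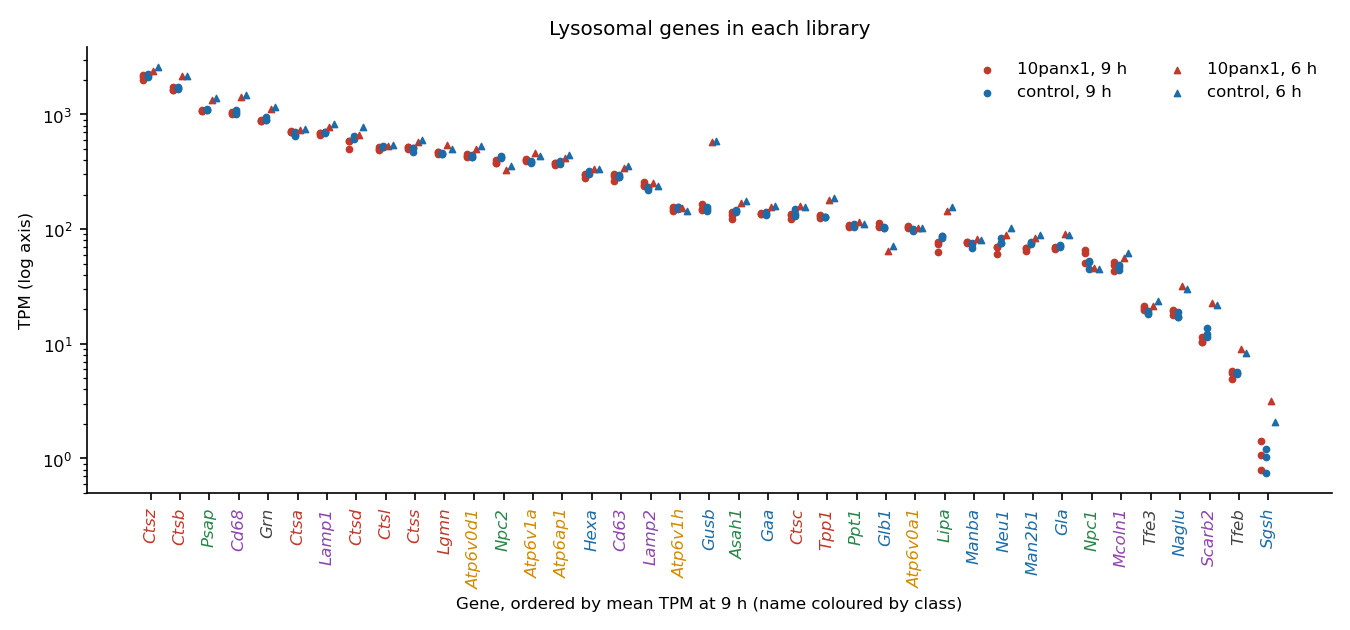
TPM (log axis) of the 39 lysosomal genes in each library, ordered by their mean at 9 h, with 10panx1 libraries in red, control libraries in blue, circles at 9 h and triangles at 6 h, and gene names coloured by class. Levels span Ctsz at 2146 TPM and Sgsh at 1.05 TPM, and the red and blue circles of most genes overlap.

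Summed over the 39 genes, the level was 14541.0, 14217.8 and 14092.7 TPM in the 10panx1 libraries at 9 h, against 14864.6, 14628.9 and 14242.9 TPM in the controls at 9 h. The 6 h libraries held 17247.1 TPM with 10panx1 and 17863.0 TPM in the control. The treatments overlapped at 9 h, and both 6 h libraries lay above all 6 at 9 h. Of the 6 classes, only the lipid hydrolases and lipid handling proteins did not overlap at 9 h, with 1809.7 to 1870.3 TPM in 10panx1 libraries and 1898.0 to 1940.8 TPM in controls. The largest term of that sum was Psap, at a mean of 1090 TPM at 9 h. Among single genes, 14.2% of all tested had every 10panx1 library below every control, and 14.7% had every one above. Proteases made up the largest share, with 6776.2 ± 142.0 TPM in 10panx1 and 6933.4 ± 175.0 TPM in control libraries at 9 h (SD, n = 3 each), and glycan hydrolases only 992.2 ± 27.9 TPM in 10panx1 and 1018.8 ± 26.8 TPM in control libraries. In bulk RNA, fewer cells that use a gene and less of its RNA per cell cannot be told apart, here and in every result that follows.

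The first comparison asked what 10panx1 did at 9 h. Of the glycan and lipid hydrolases 3 were lower with the peptide, namely Neu1, Man2b1 and Lipa, by 1.13-fold to 1.21-fold, and no gene of the set was higher. A gene was called where the quasi-likelihood test of edgeR, adjusted by Benjamini-Hochberg over 13392 genes, fell below 0.05. The 3 genes are 7.69% of the 39, against 9.21% of all genes called, 4.14% of them lower and 5.06% higher, and 11 of the 39 had an unadjusted p under 0.05, against 24.3% of all genes. The median log2 fold change was -0.03 over the set, with a range of -0.27 to 0.25. Its median size without regard to sign was 0.05, against 0.12 over all genes tested. The whole 95% interval lay within 1.25-fold either way for 33 of the 39 genes (84.6%), against 47.2% of all genes. The other 6, whose intervals reach beyond that size, were Neu1, Lipa, Npc1, Scarb2, Tfeb and Sgsh. Most of the 39 genes had high counts, whereas all tested genes include weakly expressed ones, whose estimates scatter more. These sizes and shares were not compared at matched levels, so they do not show that the set responded less.

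Among the glycan hydrolases, Neu1 encodes the sialidase that removes terminal sialic acid and works in a complex with the products of Ctsa and Glb1. Its gene (ENSMUSG00000007038) is placed by the deposited table, which names no build, on chromosome 17 at 35150229 to 35154929. Neu1 had 99.4, 99.1 and 87.5 CPM in the 10panx1 libraries, against 119.8, 109.8 and 108.4 CPM in the controls, where CPM are scaled by TMM. All 3 10panx1 libraries were below all controls, and the log2 fold change was -0.25 (SE 0.0592, edgeR adjusted p = 0.0186). The partners of Neu1 in that complex did not pass the test. Ctsa, the protective protein, had a log2 fold change of 0.06 (95% interval -0.03 to 0.15), and Glb1, the beta-galactosidase, 0.05 (95% interval -0.04 to 0.15).

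Man2b1, the alpha-mannosidase that trims glycoprotein sugars (ENSMUSG00000005142, chromosome 8 at 85809899 to 85824911 in the deposited table), had 97.6, 102.0 and 104.5 CPM in the 10panx1 libraries, against 115.7, 112.3 and 113.7 CPM in the controls. The groups did not overlap, and the log2 fold change was -0.17 (SE 0.0483, edgeR adjusted p = 0.0379). The beta-mannosidase Manba acts on the same glycans and had an estimate of 0.09 (95% interval -0.03 to 0.20). Hexa, a subunit of beta-hexosaminidase, was lower in every 10panx1 library than in every control but had an adjusted p of 0.203 by edgeR. The remaining members of the class, Gusb, Gaa, Gla, Naglu and Sgsh, had estimates of -0.06 to 0.13. Sgsh was held by 28 to 55 counts per 10panx1 library and 27 to 44 per control at 9 h, and its 95% interval, -0.47 to 0.73, was the widest of the set.

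Lipa encodes the acid lipase that frees cholesterol and fatty acids from lipoprotein lipids (ENSMUSG00000024781, chromosome 19 at 34469718 to 34504874 in the deposited table). It had 119.0, 95.9 and 116.0 CPM with 10panx1, against 134.6, 130.6 and 133.8 CPM in the controls. The groups did not overlap, although replicate 2 of the 10panx1 libraries lay well below the other two, and the log2 fold change was -0.27 (SE 0.0672, edgeR adjusted p = 0.0204). The cholesterol exporters stood on either side of zero and both just outside the threshold. Npc2, the soluble carrier that hands cholesterol to NPC1, had 522.6, 490.8 and 493.2 CPM in the 10panx1 libraries and 546.2, 574.0 and 543.5 CPM in the controls, with a log2 fold change of -0.15 (edgeR adjusted p = 0.0513). Npc1, the membrane transporter, had 115.4, 148.5 and 142.6 CPM in the 10panx1 libraries and 102.1, 120.6 and 117.6 CPM in the controls, with a log2 fold change of 0.25 (edgeR adjusted p = 0.0732). The Npc1 groups overlapped, and part of its reads may belong to Rmc1, which overlaps it on the opposite strand and held 52.3% as many counts. Asah1, an acid ceramidase, Psap and Ppt1, a depalmitoylating enzyme, had estimates of -0.13, -0.04 and -0.01. Ppt1 overlaps Cap1 on the opposite strand, a gene with 672.1% as many counts. The library kit keeps the strand, but the strand setting of the counting is not stated in the labels or file headers.

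Of the proteases 0 of 9 were called, against 9.21% of all genes, with estimates of -0.18 to 0.06. With so few genes per class, the numbers called cannot set the classes apart. Ctsd, the aspartic protease cathepsin D, was nearest to the threshold, with 491.0, 414.5 and 493.6 CPM in the 10panx1 libraries and 519.4, 549.8 and 514.4 CPM in the controls. Every 10panx1 library was below every control, and the log2 fold change was -0.18 (SE 0.0601, edgeR adjusted p = 0.0732). It passed the threshold with DESeq2 (adjusted p = 0.0468) and in 3 other alternatives. The cysteine cathepsins Ctsb, Ctsl, Ctss, Ctsc and Ctsz, the asparaginyl endopeptidase Lgmn and the tripeptidyl peptidase Tpp1 had estimates of -0.09 to 0.05, each with a 95% interval within 1.25-fold.

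Among membrane proteins 0 of 6 were called, against 9.21% of all genes. Here and for the pump and regulators below, counts this small cannot set the classes apart. The glycoproteins Lamp1 and Cd68 and the tetraspanin Cd63 had estimates of -0.02 to -0.04, and the calcium channel Mcoln1 0.05. Lamp2, which also serves in chaperone-mediated autophagy, was higher in all 10panx1 libraries than in all controls, with an estimate of 0.11 and an adjusted p of 0.161 by edgeR. Scarb2, the receptor that carries glucocerebrosidase to the lysosome, lay the other way, with all 10panx1 libraries below all controls. Its estimate was -0.23 (95% interval -0.41 to -0.04, edgeR adjusted p = 0.122). The proton pump subunits Atp6v0d1, Atp6v1a, Atp6v1h, Atp6v0a1 and the accessory protein Atp6ap1 had estimates of -0.05 to 0.09, and 0 of 5 were called. Of the regulators 0 of 3 were called: Tfeb had 5.12, 5.30 and 4.65 CPM in the 10panx1 libraries and 5.08, 5.05 and 5.19 CPM in the controls, Tfe3 an estimate of 0.13 (edgeR adjusted p = 0.189) and Grn -0.05. These are mRNA levels, and TFEB and TFE3 are regulated mainly by where the proteins lie in the cell, which was not measured.

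**Figure D3:**
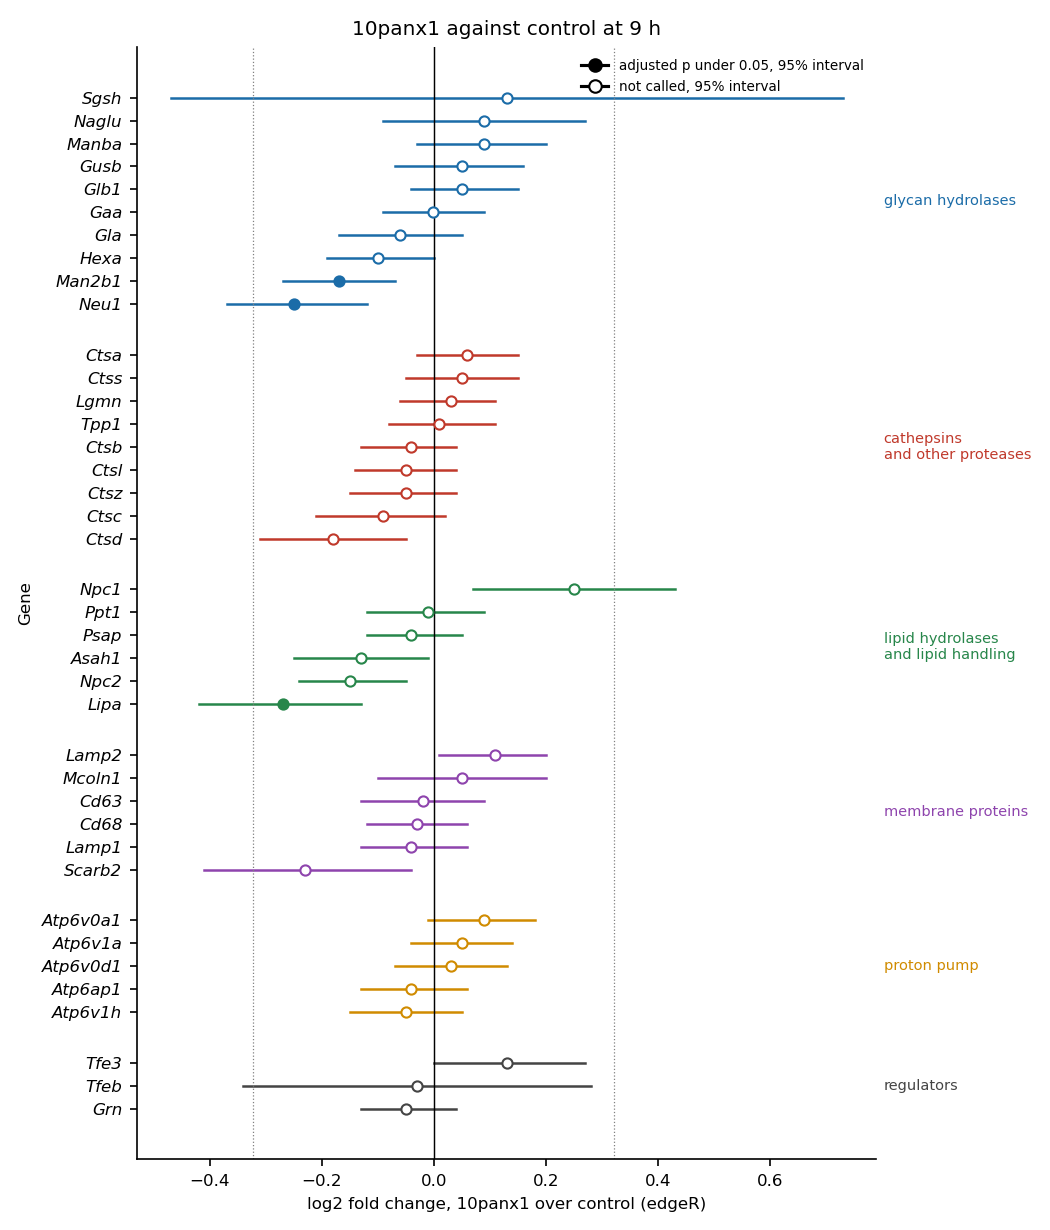
log2 fold change of 10panx1 over control at 9 h (horizontal axis, edgeR) for the 39 lysosomal genes, grouped and coloured by class, with 95% intervals. Filled points are the 3 genes called at an adjusted p under 0.05 (Neu1, Man2b1 and Lipa), dotted lines mark 1.25-fold either way, and most points lie within 0.1 of zero.

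Across the set, 8 genes (20.5%) had all 10panx1 libraries below all controls, against 14.2% of all genes, and 3 genes (7.69%) had them all above, against 14.7%. Estimates were below zero for 23 of 39 genes (59.0%), against 50.9% of all genes. The 3 calls rest on small differences between few libraries. Without control replicate 3, which held the hepatocyte and fibroblast transcripts, 1 gene remained called: Neu1 (edgeR adjusted p = 0.0324), while Man2b1 had 0.105 and Lipa 0.063. The log2 fold changes without it were -0.27 for Neu1, -0.17 for Man2b1 and -0.27 for Lipa, as large as with it. Without control replicate 1, 0 of the 39 genes were called (edgeR adjusted p = 0.0847 for Neu1 and 0.0654 for Lipa). With a TPM-based test (limma on log2 of TPM + 1) 0 of the 39 were called. Calls over all genes fell too, from 678 higher and 555 lower to 490 and 351 without control replicate 3. They numbered 323 and 275 without control replicate 1, and 201 and 167 with the TPM-based test.

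At 6 h each treatment had 1 library, so the values have no test. Neu1 had 117.5 CPM with 10panx1 and 136.0 CPM in the control, Man2b1 115.6 CPM with 10panx1 and 123.8 CPM in the control, and Lipa 203.3 CPM with 10panx1 and 220.2 CPM in the control. All 3 genes lay lower with the peptide at this time too. Of the 39 genes 25 (64.1%) were below the control, against 49.0% of all genes, and the median log2 ratio was -0.03. Only Sgsh differed by over 1.25-fold, at a log2 ratio of 0.60 on 96 counts with 10panx1 and 76 in the control, which is 2.56% of the set against 20.7% of all genes. The set and all genes were not matched for level here either.

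**Figure D4:**
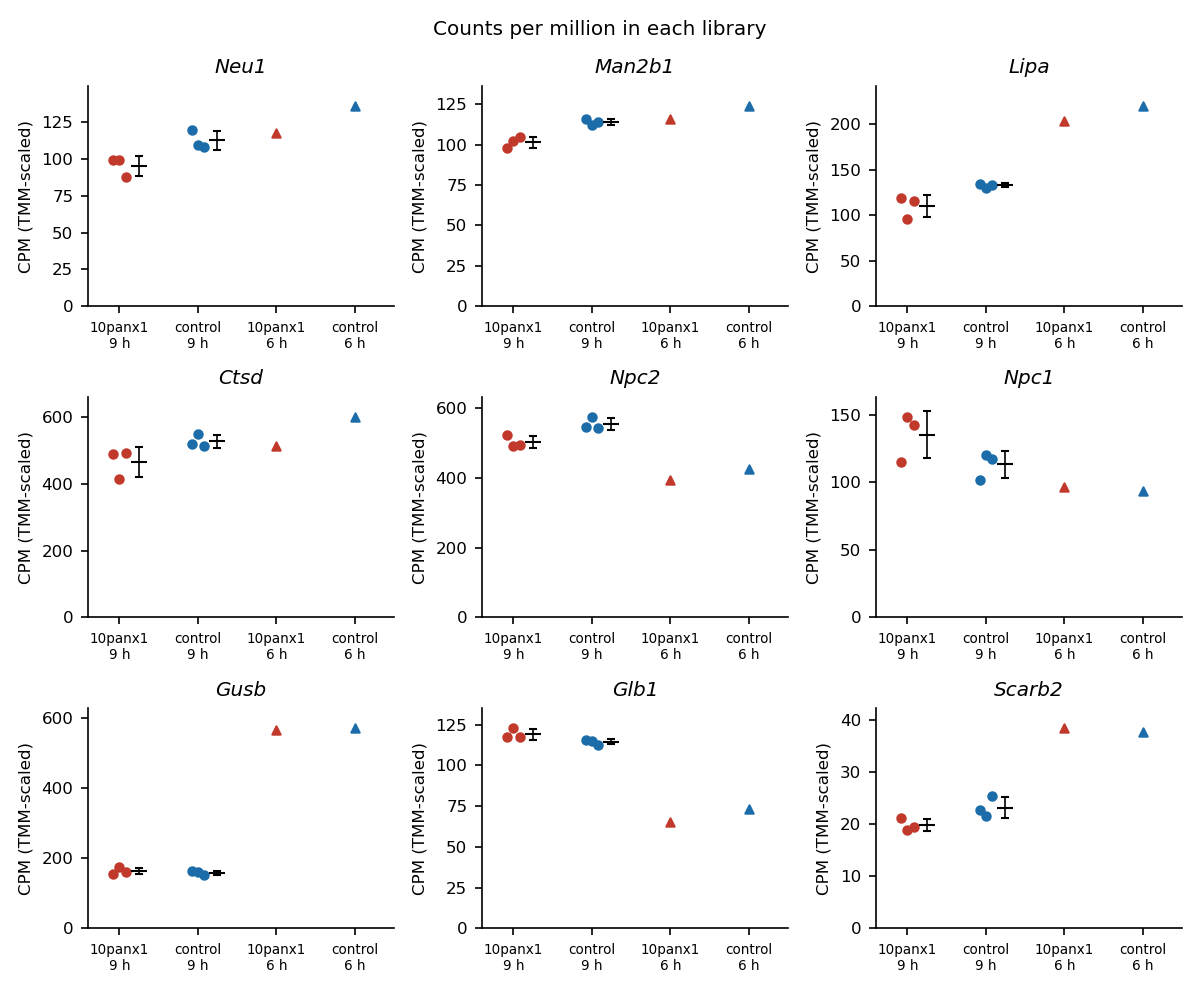
TMM-scaled CPM (vertical axes, starting at 0) of 9 lysosomal genes in each library, with 10panx1 left of control at 9 h (circles) and at 6 h (triangles), and the mean and SD beside each group of 3. Neu1, Man2b1, Lipa, Ctsd, Npc2 and Scarb2 have every 10panx1 circle below every control circle, and Npc1 circles overlap. Gusb and Glb1 differ mainly between the times.

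The second comparison, 9 h against 6 h over both treatments, showed far larger differences, and most of them were falls. Gusb, which encodes beta-glucuronidase, a glycosaminoglycan hydrolase, fell 3.57-fold, while Glb1 rose 1.67-fold. In all, 22 of the 39 genes (56.4%) were lower at 9 h and 4 (10.3%) were higher, against 31.5% lower and 31.6% higher of the 14315 genes tested, by edgeR with treatment as a covariate. Together the 26 called genes are 66.7% of the set, near the 63.1% called over all genes. All 9 h libraries lay below both 6 h libraries in 19 genes (48.7%), against 30.3% of all genes, and above both in 5 genes (12.8%), against 30.9%. The median log2 fold change was -0.12, and the size was modest: the median without regard to sign was 0.17, against 0.39 over all genes, and 6 genes passed 1.5-fold, of which Gusb and Sgsh passed 2-fold. Levels were not matched between the set and all genes, and weakly expressed genes scatter more. All 26 had the same sign in 10panx1 libraries alone and in controls alone. The calls came from these same libraries, so that agreement was largely set by the choice of genes and is no separate support. Each treatment had 1 library at 6 h, so what is peculiar to those libraries, such as their higher mitochondrial share, and the time cannot be told apart.

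Among glycan hydrolases 7 of 10 were lower and 1 higher, against 31.5% lower and 31.6% higher of all genes. Gusb (ENSMUSG00000025534, chromosome 5 at 130017852 to 130031890 in the deposited table) had 155.7, 174.3 and 160.7 CPM in the 10panx1 and 164.0, 159.3 and 150.8 CPM in the control libraries at 9 h, against 566.8 CPM with 10panx1 and 571.6 CPM in the control at 6 h. The 6 libraries at 9 h lay close together and far below both at 6 h, and the log2 fold change was -1.83 (SE 0.0463, edgeR adjusted p = 1.95e-14). It was -1.79 in 10panx1 libraries alone and -1.85 in controls alone. Among all genes that were lower at 9 h, 338 fell more than Gusb.

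Glb1 (ENSMUSG00000045594, chromosome 9 at 114230144 to 114303966 in the deposited table) went the other way. It had 117.1, 122.9 and 117.1 CPM in the 10panx1 and 115.7, 114.7 and 112.7 CPM in the control libraries at 9 h, against 65.2 CPM with 10panx1 and 73.5 CPM in the control at 6 h, a log2 fold change of 0.74 (SE 0.0583, edgeR adjusted p = 9.38e-09). All 9 h libraries were above both 6 h libraries. The short gene Tmppe lies within Glb1 on the same strand and held 17.7% as many counts.

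Naglu and Sgsh, which both act on heparan sulfate, were both lower at 9 h. Naglu had a lowest, median and highest level of 17.4, 18.6 and 19.9 CPM at 9 h, against 29.5 CPM with 10panx1 and 28.0 CPM in the control at 6 h (log2 fold change -0.64, edgeR adjusted p = 2.9e-06). Sgsh had 1.28, 1.81 and 2.46 CPM at 9 h in the same order, against 5.08 CPM with 10panx1 and 3.31 CPM in the control at 6 h (log2 fold change -1.20, SE 0.232, edgeR adjusted p = 0.000239). For both genes all libraries at 9 h lay below both at 6 h. Sgsh is overlapped on the opposite strand by Card14, a gene with 215% as many counts. Neu1 (-0.30), Gla (-0.26), Man2b1 (-0.16) and the glycogen-cutting Gaa (-0.11) were lower by less, and Hexa (-0.04) and Manba (-0.02) were not called.

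Of the proteases 4 of 9 were lower (44.4%), against 31.5% of all genes, all by less than 1.5-fold. Tpp1 fell by 0.42 on the log2 scale (edgeR adjusted p = 3.33e-07), with 180.0, 186.1 and 192.2 CPM as lowest, median and highest at 9 h, against 242.0 CPM with 10panx1 and 251.8 CPM in the control at 6 h. Ctsb, the second most abundant gene of the set, fell by 0.26 (edgeR adjusted p = 1.85e-05), with 3016.4, 3170.6 and 3247.0 CPM at 9 h, against 3721.3 CPM with 10panx1 and 3766.2 CPM in the control at 6 h. Both genes had all 9 h libraries below both at 6 h. Ctsd (-0.17) and Ctsz (-0.10) were also called lower. Ctsc (edgeR adjusted p = 0.068) and Ctss (edgeR adjusted p = 0.0693) stood just outside the threshold, and Ctsa, Ctsl and Lgmn had estimates of -0.07 to 0.05.

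Lipid handling split in direction. Lipa fell by 0.82 (edgeR adjusted p = 8.25e-09), with 95.9, 124.8 and 134.6 CPM as lowest, median and highest at 9 h, against 203.3 CPM with 10panx1 and 220.2 CPM in the control at 6 h. Asah1 (-0.23) and Psap (-0.22) fell as well. The cholesterol exporters both rose. Npc2 had 490.8, 533.0 and 574.0 CPM at 9 h, against 394.0 CPM with 10panx1 and 424.8 CPM in the control at 6 h (log2 fold change 0.36, edgeR adjusted p = 2.43e-06). Npc1 had 102.1, 119.1 and 148.5 CPM at 9 h, against 96.6 CPM with 10panx1 and 93.3 CPM in the control at 6 h (log2 fold change 0.37, edgeR adjusted p = 0.00117). Lipa and Npc2 thus lay lower with 10panx1 at 9 h but moved in opposite directions over time, with the Npc2 difference between treatments outside the threshold.

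Of the membrane proteins 5 of 6 were lower, against 31.5% of all genes. Scarb2 (ENSMUSG00000029426, chromosome 5 at 92589173 to 92654692 in the deposited table) fell by 0.84 (edgeR adjusted p = 2.63e-07), with 18.9, 21.4 and 25.4 CPM as lowest, median and highest at 9 h, against 38.5 CPM with 10panx1 and 37.7 CPM in the control at 6 h. Cd68 fell by 0.38 (edgeR adjusted p = 6.9e-07), with 485.0, 508.3 and 527.6 CPM at 9 h, against 638.2 CPM with 10panx1 and 666.9 CPM in the control at 6 h. In both genes the times did not overlap. Mcoln1 (-0.23), Cd63 (-0.19) and Lamp1 (-0.11) fell less, and Lamp2 had an estimate of 0.05 and was not called. Cd63 has a pseudogene, and how reads that match both were counted is not stated in the labels or file headers.

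In the proton pump all estimates lay within 0.14 of zero on the log2 scale. Atp6v0d1, a subunit of the membrane sector, fell by 0.14 (edgeR adjusted p = 0.0155), Atp6v1h, a regulatory subunit of the cytosolic sector, rose by 0.14 (edgeR adjusted p = 0.0215), and Atp6v1a, Atp6v0a1 and Atp6ap1 were not called, with estimates of -0.09 to 0.09. Among the regulators, Tfeb fell by 0.56 (SE 0.128, edgeR adjusted p = 0.00105): it had 4.65, 5.10 and 5.30 CPM as lowest, median and highest at 9 h, against 7.73 CPM with 10panx1 and 7.14 CPM in the control at 6 h. Grn fell by 0.24 (edgeR adjusted p = 5.8e-05), and Tfe3 had an estimate of -0.10 and was not called.

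**Figure D5:**
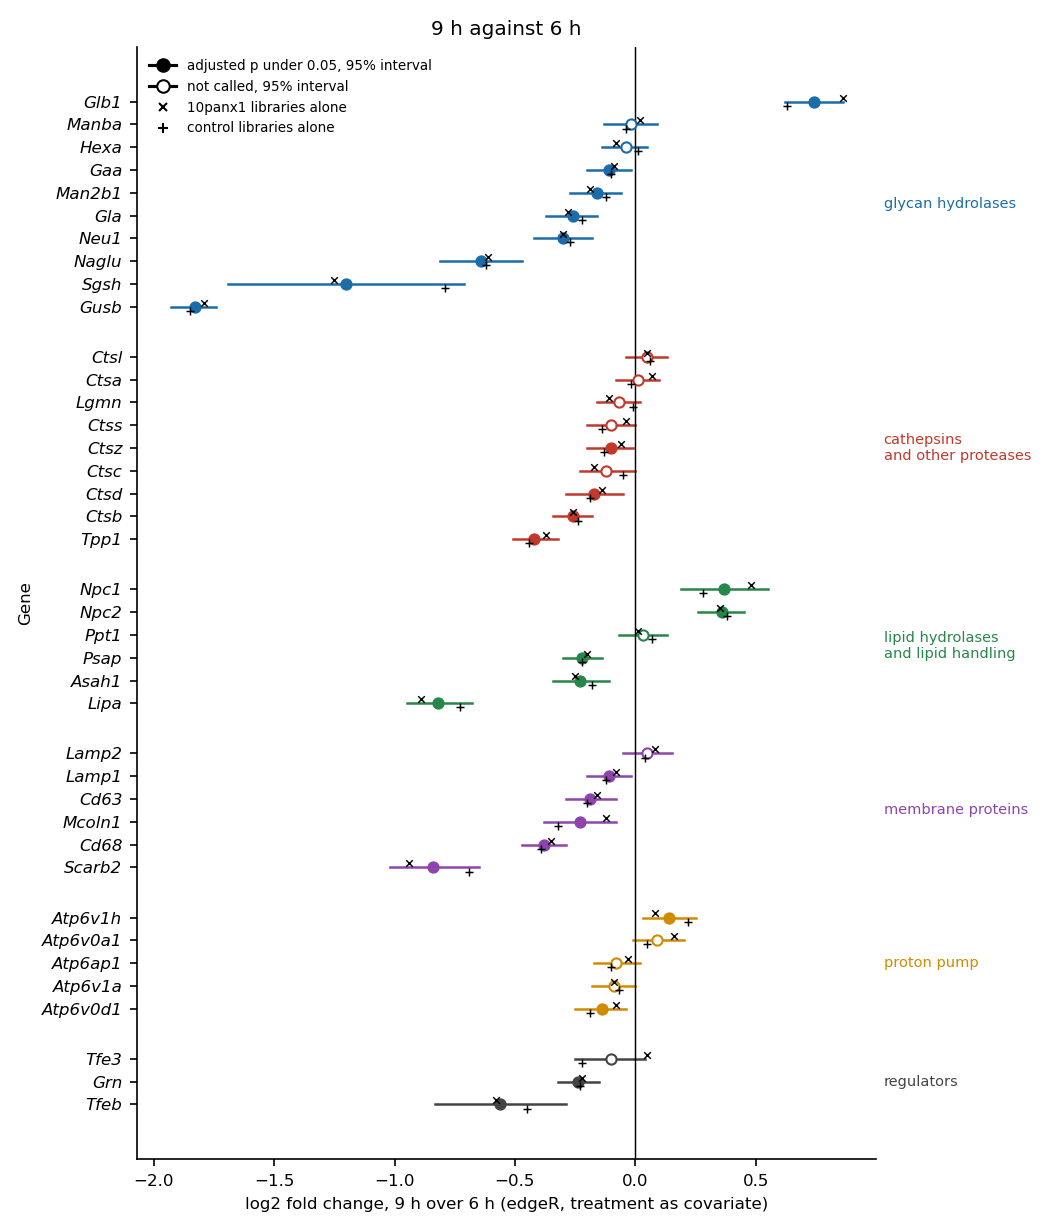
log2 fold change of 9 h over 6 h (horizontal axis, edgeR with treatment as covariate) for the 39 lysosomal genes by class, with 95% intervals, and the same change in 10panx1 libraries alone (x) and control libraries alone (+). Filled points are the 26 genes called; 22 lie left of zero, led by Gusb at -1.83, and 4 lie right of it, led by Glb1 at 0.74.

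Calls of the set over time were kept in more fits than those between treatments, but each comparison had some alternative fits of its own. Over all genes 63.1% were called over time and 9.21% between treatments, and the share of all genes keeping their call was not counted. In every alternative fit 15 of the 26 kept their call, against 0 of the 3 called with 10panx1: Gusb, Glb1, Gla, Naglu, Sgsh, Neu1, Ctsb, Tpp1, Lipa, Psap, Npc2, Cd68, Scarb2, Tfeb and Grn. The lower count was 17 without the 10panx1 library at 6 h and 15 without the control library at 6 h, 19 without replicate 3 of the 9 h controls and 30 on the TPM scale, where 37.6% of all called genes were higher, against 50.1% in the count test. On that scale the median of all genes lay at -0.109 and that of the set at -0.222, so the set's distance to all genes was like that of the count test, where the set lay at -0.117 and all genes at -0.001.

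The third comparison asked whether the response to 10panx1 was another at 9 h than at 6 h. By the edgeR interaction test 0 of 39 genes and 0 of 15331 genes (0.0%) were called, with 2 of the 39 and 874 of all genes (5.7%) at an unadjusted p under 0.05, and DESeq2 also called 0. The smallest adjusted p in the set was 0.866, and the median difference was 0.01 with a range of -0.48 to 0.27. The spread in this test comes from the 9 h replicates, and a p above the threshold does not show that the effect was alike at both times.

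Set beside the promoter sequences printed above, the calls can be described as follows, with no test. Called lower with 10panx1 at 9 h were 0 of 13 genes with an E-box and 3 of 22 with a window and no E-box. Over all genes 4.14% were called lower, so counts this small cannot set the groups apart. The medians were 0.03 with and -0.03 without the E-box. Over time 8 of 13 genes with an E-box were lower and 1 higher, at a median of -0.11. Of 22 genes without it, 12 were lower and 1 higher, at a median of -0.14. The shares over all genes were 31.5% lower and 31.6% higher. Of the 6 genes with the TFEB form, 4 were lower at 9 h than at 6 h and 0 were higher.

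Beyond the 39 genes, 142 further genes of lysosomal and autophagy function, listed in 7 groups, show the wider pathway. At 9 h, 10 of the 132 tested (7.58%) were called between treatments, 4 higher and 6 lower with 10panx1, against 9.21% of all genes called. The largest change of these 10 was in Ulk1, the kinase that starts autophagy, with 20.1, 18.9 and 20.1 CPM in the 10panx1 libraries, against 33.3, 26.0 and 29.0 CPM in the controls. The log2 fold change was -0.58 (SE 0.0912, edgeR adjusted p = 0.00207), the groups did not overlap, and the log2 ratio at 6 h was -0.48. The Ulk1 call was lost in 1 alternative, the TPM fit without a variance trend. It was the only call among 20 autophagy genes.

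In the list of other cathepsins and protease inhibitors 2 of 11 were lower. One was Pcyox1, listed there although it is an oxidase of prenylated cysteines and not a protease (log2 fold change -0.36, edgeR adjusted p = 0.0073). The other was Cst3, the cathepsin inhibitor cystatin C (-0.17, edgeR adjusted p = 0.0353). Among 26 other hydrolases 1 was lower, the lysozyme gene Lyz2 (-0.19, edgeR adjusted p = 0.0384). The membrane group of 24 had Laptm4a lower (-0.32) and the ion channel Mcoln3 (0.19) and the chloride exchanger Clcn7 (0.18) higher. Of 13 other pump subunits Atp6v0b was lower (-0.18) and Atp6v1d higher (0.19), of 20 genes of enzyme delivery the mannose 6-phosphate receptor Igf2r was higher (0.21, edgeR adjusted p = 0.0245), and of 18 genes of TFEB control 0 were called. Without replicate 3 of the controls 4 of these 10 calls held, in Pcyox1, Laptm4a, Igf2r and Ulk1.

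Over time 86 of 133 of these genes (64.7%) were called, near the 63.1% of all genes called. Of the 133, 32 (24.1%) were higher and 54 (40.6%) lower at 9 h, against 31.6% higher and 31.5% lower over all genes. Among other hydrolases 13 of 27 were lower (48.1%) and 5 higher (18.5%). Among other membrane proteins 16 of 24 were lower (66.7%) and 5 higher (20.8%). Dnase2a, the acid DNase, had 26.9, 32.4 and 36.8 CPM as lowest, median and highest at 9 h, against 70.8 CPM with 10panx1 and 78.9 CPM in the control at 6 h (log2 fold change -1.24, edgeR adjusted p = 1.35e-09). Galc, which cuts the myelin lipid galactosylceramide, fell by 1.08 (edgeR adjusted p = 2.14e-09). In the membrane group Tpcn2, an ion channel, fell by 1.29, Spns1, a lysophospholipid transporter, by 0.77 and Mcoln3 by 0.64. In the list of other cathepsins and protease inhibitors 3 of 11 were lower and 2 higher, with the dipeptidyl peptidase Dpp7 (-0.86) and the cathepsin Ctso (-0.74) lower and the carboxypeptidase Scpep1 (0.21) higher. Of 13 other pump subunits 6 were lower and 2 higher, with Atp6v0c (-0.42) and Atp6v1b2 (-0.26) lower and Atp6v1d (0.35) higher.

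Of 20 genes of enzyme delivery 8 were lower, among them the tethering subunit Vps18 (-0.65) and the sorting adaptor Gga2 (-0.54), and 4 were higher, among them the adaptor subunit Ap3b1 (0.50). Of 18 genes of TFEB control 6 were lower (33.3%) and 5 higher (27.8%), near the shares over all genes. Rraga, a GTPase that recruits the kinase mTORC1 to lysosomes, fell by 0.80 (edgeR adjusted p = 4.14e-10), whereas Rptor, the mTORC1 subunit that it binds, rose by 0.57 (edgeR adjusted p = 2.92e-08). Mitf, a relative of Tfeb best known from melanocytes and osteoclasts, had 18.4, 20.6 and 24.6 CPM as lowest, median and highest at 9 h, against 10.9 CPM with 10panx1 and 8.79 CPM in the control at 6 h (log2 fold change 1.07, edgeR adjusted p = 9.17e-08), so it rose while Tfeb fell. Of 20 autophagy genes 9 were higher and 2 lower, against 31.6% higher and 31.5% lower over all genes. Uvrag, which promotes autophagosome maturation, rose by 1.18 (edgeR adjusted p = 7.76e-11) and the receptor Tax1bp1 by 0.52, while Plekhm1, an adaptor for fusion with lysosomes, fell by 0.80.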

How the data were processed

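The authors deposited read counts per gene as whole numbers and TPM per gene, which the authors scaled to 1000000 per library, for poly(A)-selected RNA from libraries that keep the strand, per the labels' protocols. Per the submitters' processing notes, the tools include STAR, featureCounts, Trimmomatic, FastQC and DESeq2, with no versions or roles, and the build is GRCm38. None of the 39 genes starts where a GRCm38 annotation places it, so gene coordinates are given as the deposited table has them, with no build. The strand setting and the treatment of multiply mapped reads are not stated there or in the labels.

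Of 57010 rows, 151 repeats of 148 symbols with identical counts were dropped. Libraries were grouped by title. The deposited counts went into edgeR 4.0.16 under R 4.3.3, with limma 3.58.1 loaded: TMM scaling, filterByExpr, quasi-likelihood test, Benjamini-Hochberg adjustment over all tested genes, threshold 0.05. The 9 h comparison used 6 libraries, and the comparison of times (treatment as covariate) and the interaction used all 8. The 6 h ratios used a prior count of 2. CPM are TMM-scaled. Replicate pairs at 9 h differed beyond sampling noise (chi-square per degree of freedom 4.03 to 7.04), and each was kept as a sample of its own. The fitting code was tested on simulated data.

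The members, lists and tests were chosen with earlier results of these data known. Besides the 39 genes, the text names up to 3 called genes of each list with the smallest p, of which 1 is not reported here. Stretches of membrane proteins and cathepsins, planned for display, were not used here. Alternatives were other scalings and filters, limma-voom, DESeq2 1.42.0, limma on log2 TPM, leaving out each library, a replicate block, a fit with all 8 libraries and one without the treatment covariate. Figures were drawn with matplotlib 3.10.9 and tables made with pandas 2.3.3 in Python 3.11.15.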

Additional observations from a re-analysis of the deposited data

How the results depend on the processing

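No called gene of the set changed sign under any alternative. For 10panx1 against control at 9 h, edgeR called 678 genes higher and 555 lower. The numbers were 201 and 167 with limma on log2(TPM + 1), 205 and 166 with a pseudocount of 0.1, and 2 and 0 with no variance trend, a fit chosen after seeing the data. Without a filter 882 were lower, and with each library left out 323 to 813 were higher and 262 to 620 lower. Of the 39 genes, 3 were lower and 0 higher. Lower calls numbered 5 with no filter and with DESeq2, 0 in each TPM fit and 0 to 5 with a library left out, and higher calls 1 with no filter and with DESeq2 and 0 to 1 with a library left out. Neu1 kept its call in 12, Lipa in 11 and Man2b1 in 8 of 17 alternatives, and Ctsd, Npc1, Npc2 and Asah1 gained one in some. For 9 h against 6 h, higher calls in the set were 4, or 2 in both TPM fits and 3 to 4 with a library left out, and lower calls 15 to 23 with a library left out. Of the interaction, 11 genes were higher and 23 lower with no filter, 1 and 1 with limma on log2(TPM + 0.1) and 0 to 1 and 0 with a library left out, and 0 of the 39 throughout. Leaving out a 6 h library left no interaction to fit.

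Whether the replicate numbers pair the libraries is not settled. Correlations of deviations between treatments were 0.150, 0.001 and 0.098 for libraries of the same number, and -0.163 to 0.050 for libraries of different numbers. With a replicate block at 9 h, 1850 genes were called against 1233, 843 of them lower, and of the 39 genes 5 were lower and 1 higher. Depth limits Sgsh and Tfeb, and the single libraries limit every result at 6 h.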
